A study of Mus musculus with 8 samples.

Results

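The comparison of 12 h of exposure to bisphenol A (BPA) with 0 h was examined in TTE3, a mouse Sertoli cell line, with 2 Affymetrix Mouse 430A arrays at each time (4 of the study's 8 arrays). All probe sets that carried 1 gene symbol and were no control were used, with the brightest probe set standing for each gene. This gave 12393 genes, of which 8675 were bright enough to be tested. Total RNA came from cells given 0.2 mM BPA for 0, 3, 6 or 12 h, and the question was what BPA does to Sertoli cell gene expression. The 12 h and 0 h groups share the cell line, the BPA dose and a temperature-sensitive SV40 large T antigen, since TTE3 was made from mice that carry this transgene and is a single line. The 0 h cells are those at the start of exposure. No untreated cells kept for 12 h were analysed here, so the effect of BPA and that of 12 h in culture cannot be told apart. Whether the arrays of a group stem from separate cultures is not stated, so each p-value reflects only how far these samples lie apart, and that spread may be technical.

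BPA is a plastics monomer that binds oestrogen receptors weakly. Sertoli cells nurse the developing germ cells of the testis and seal the tubule by junctions known as the blood-testis barrier. Cells that run short of amino acids, or whose endoplasmic reticulum (ER) holds unfolded protein, phosphorylate the initiation factor eIF2; general translation then slows while the transcription factor ATF4 is made, and ATF4 with its target CHOP (gene Ddit3) switches on genes for amino acid supply and for stress. A separate arm of the ER response, run by ATF6 and XBP1, switches on the ER chaperones.

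Signal here means the deposited linear intensity of a probe set. A gene was called when limma's test, fitted over all 8 arrays and all 8675 genes, gave a Benjamini-Hochberg adjusted p under 0.05. Changes are log2(signal + 7.9) at 12 h minus that at 0 h, given ± their standard error (SE) from the fit, with 2 arrays in each group throughout. For every called gene named in the text both 12 h arrays lay beyond both 0 h arrays, so that the groups did not overlap. Array medians ran between 150.9 and 170.0 over the 8 arrays. The 12 h pair correlated at 0.968 over the genes, the 0 h pair at 0.976 and arrays across the 2 times at 0.945 to 0.953. Sertoli identity was only partly borne out by its markers: 19 of the 30 on the array were bright enough to test. The 30 had summed signals of 36397.6 and 35009.1 at 12 h and 36405.6 and 36828.5 at 0 h, most of it from Vim and Ctsl. The sum hides unlike changes of its members. Vim, which was not called, had 16210.6 and 14534.7 at 12 h and 13171.4 and 13382.6 at 0 h. Clu, which was called lower, had 3089.3 and 3729.1 at 12 h and 7747.4 and 7553.6 at 0 h. The transcripts of Clu (clusterin), Ctsl, Krt18 and Kitl were bright, whereas Amh (5.3 and 17.8 at 12 h, 5.2 and 9.0 at 0 h), Fshr and Gdnf fell below the filter. Esr1 and Esr2, the oestrogen receptor genes, were also below it, at 26.8 and 43.9 for Esr1 at 12 h and 11.1 and 39.1 at 0 h.

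After 12 h of BPA, 1810 of the 8675 genes (20.9%) were higher than at 0 h and 1521 (17.5%) were lower, 3331 in all (38.4%). Most changes were moderate. Of the genes called higher, 1319 changed by less than 2-fold, 416 by 2- to 4-fold, 62 by 4- to 8-fold and 13 by 8-fold or more. The genes called lower fell into the same classes as 1068, 409, 42 and 2. At least 2-fold, 491 genes (5.66%) were thus higher and 453 (5.22%) lower. The median change over all genes tested was 0.06, and the gene lists are read beside that value and the shares of 20.9% and 17.5%. Whatever the test gave, both 12 h arrays lay above both 0 h arrays for 38.6% of genes and below them for 30.9%.

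Fewer genes differed between 12 h and 6 h: 414 (4.77%) were called, 80 higher (0.922%) and 334 lower (3.85%), a comparison that shares its 12 h arrays with the one against 0 h. Bringing all arrays to 1 median turned these into 203 higher and 199 lower genes (50.5% higher, against 19.3%). Without the first 12 h array 154 were called (20 higher and 134 lower), without the second 45 were higher, without the first 6 h array 219 were lower, and without the second 6 h array 129 were higher.

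**Figure D1:**
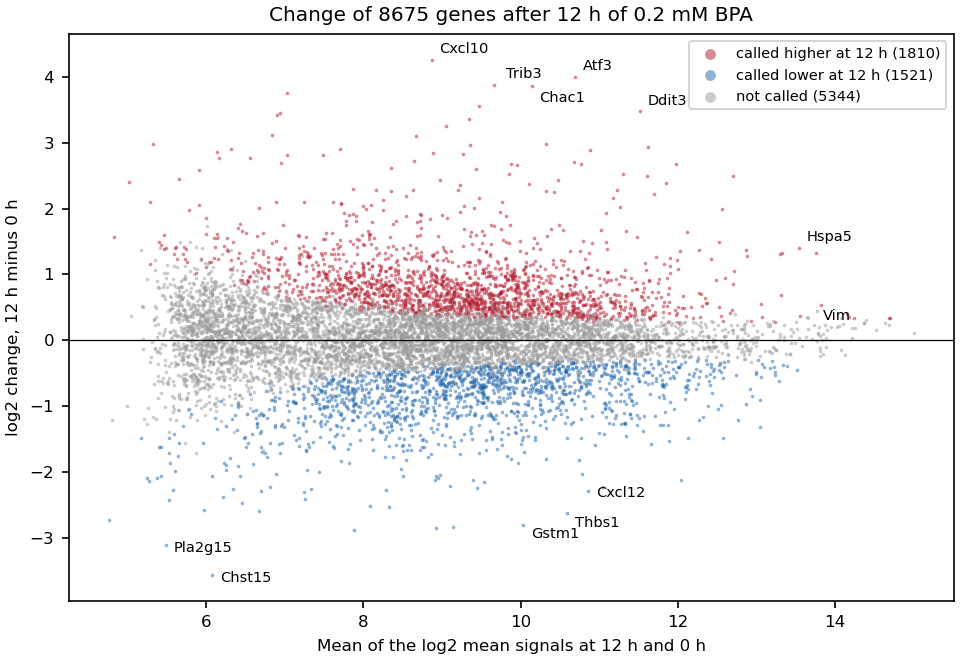
Change at 12 h against 0 h (log2 scale, vertical axis) against the mean of the log2 mean signals at 12 h and 0 h (horizontal axis), 1 point per gene. The 1810 genes called higher are red, the 1521 called lower are blue and the 5344 not called are grey, and Cxcl10 (4.26) and Chst15 (-3.56) lie at the ends.

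The sequences behind the amino acid and stress genes are shown first, because the best known ATF4 binding element, which joins a site for C/EBP proteins to one for ATF proteins, can be read in their promoters. The letters TGATGNAA were searched on both strands from 250 bases before to 50 bases after each gene's start in RefSeq's table for GRCm38.p6. They occurred in 3.97% of all 32851 promoters of that table and in 194 of 9179 promoters (2.11%) of the genes tested. Of the list of ATF4 and CHOP targets, 23 genes were called higher, and 21 of these had a promoter in the table. Among their 25 promoters 8 held the element (32.0%), in Asns, Atf3, Chac1, Herpud1, Jdp2, Nupr1, Slc7a11 and Trib3. Each match is printed with 10 bases on either side, turned so that the element, in capitals, reads the same way.
Asns (chr6:7693215-7693242, minus strand): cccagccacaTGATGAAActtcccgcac
Atf3 (chr1:191183426-191183453, plus strand): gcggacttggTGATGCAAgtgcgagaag
Chac1 (chr2:119351039-119351066, minus strand): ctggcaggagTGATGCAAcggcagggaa
Herpud1 (chr8:94386307-94386334, minus strand): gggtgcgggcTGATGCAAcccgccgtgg
Jdp2 (chr12:85599373-85599400, plus strand): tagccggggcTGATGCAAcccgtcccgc
Nupr1 (chr7:126625563-126625590, plus strand): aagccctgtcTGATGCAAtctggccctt
Slc7a11 (chr3:50443662-50443689, minus strand): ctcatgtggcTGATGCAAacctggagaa
Slc7a11 (chr3:50443643-50443670, plus strand): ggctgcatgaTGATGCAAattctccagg
Trib3 (chr2:152344029-152344056, plus strand): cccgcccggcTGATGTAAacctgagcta
Slc7a11 held the element in both orientations within one stretch. The matches lay from 193 bases before the start (Chac1) to 14 bases after it (Trib3). The list gathers known targets, and only members called higher were searched, so its high share may follow from how the list was chosen. A match of letters is a description and does not show that ATF4 bound there.

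Aminoacyl-tRNA synthetases load amino acids onto their tRNAs. Of the 13 called higher at 12 h, 9 had a promoter in the table. Of these 5 held the element (55.56%), namely Aars, Gars, Iars, Tars and Yars. It is printed for 4 of them. Aars, with matches 112 bases before and 9 bases after the start, is not printed.
Gars (chr6:55037961-55037988, minus strand): gcccggtgcaTGATGAAAtagcgcagcc
Iars (chr13:49682127-49682154, minus strand): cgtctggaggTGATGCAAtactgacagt
Tars (chr15:11399656-11399683, plus strand): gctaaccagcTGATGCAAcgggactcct
Yars (chr4:129189896-129189923, plus strand): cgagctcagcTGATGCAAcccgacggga
Genes at least 4-fold higher at 12 h held the element in 8 of 67 promoters (11.94%), those at least 2-fold higher in 4.49% and those at least 2-fold lower in 1.06%. The 8 include those of Asns, Atf3, Chac1, Herpud1, Slc7a11 and Trib3 printed above, so this share mostly counts the same promoters again. The cyclic AMP response element TGACGTCA, searched in the same way, stood in 4.53% of promoters of genes called higher and 1.75% of those called lower, beside 3.01% of all tested. These shares are described without a test.

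Transcription factors of the stress response were among the largest rises. Atf3, a repressor and activator that acts below ATF4, had signals of 6477.3 and 6864.1 at 12 h, against 416.6 and 400.7 at 0 h. Its change of 4.0 ± 0.11 was the largest among genes of above-median signal, and at 12 h against 6 h it was 0.09 (adjusted p = 0.705, limma). Ddit3, which encodes CHOP, reached 10492.4 and 9116.7 at 12 h against 934.0 and 816.6 at 0 h, a change of 3.47 ± 0.11, and it was still 0.50 ± 0.11 above its 6 h signals (adjusted p = 0.0242), a call lost without the first 12 h array (0.40) or the first 6 h array (0.46). Atf4 itself stood at 12310.8 and 11862.7 at 12 h, against 3022.6 and 3038.0 at 0 h. The 12 h and 0 h arrays were far apart for all 3 genes, and Atf4 and Atf3 were not called against 6 h.

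Known targets of these factors were higher as well. Trib3, a pseudokinase that binds AKT and ATF4, had 3075.0 and 3260.9 at 12 h against 206.2 and 210.6 at 0 h. Trib3 was also 0.76 ± 0.11 higher at 12 h than at 6 h (adjusted p = 0.00276). Chac1, which degrades glutathione, had 4550.3 and 4172.7 at 12 h against 304.8 and 279.7 at 0 h and was unlike Trib3 in that its 12 h signals did not pass the test against 6 h (-0.19, adjusted p = 0.442). Ppp1r15a, the phosphatase subunit that reverses eIF2 phosphorylation, rose by 2.67 ± 0.16, with 2675.4 and 2137.3 at 12 h and 383.3 and 353.7 at 0 h. Over the list of ATF4 and CHOP targets 23 of 28 tested genes were higher and none lower, with a median of 1.88. Against 6 h, 12 of the 28 were higher at 12 h and 1 was lower. Stc2, a secreted glycoprotein of the calcium and phosphate balance, was one of the later genes, with 401.6 and 487.2 at 12 h and 87.4 and 112.5 at 0 h (named after its values were seen). Its change was 2.07 ± 0.21, and 1.20 averaged over its 2 probe sets.

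**Figure D2:**
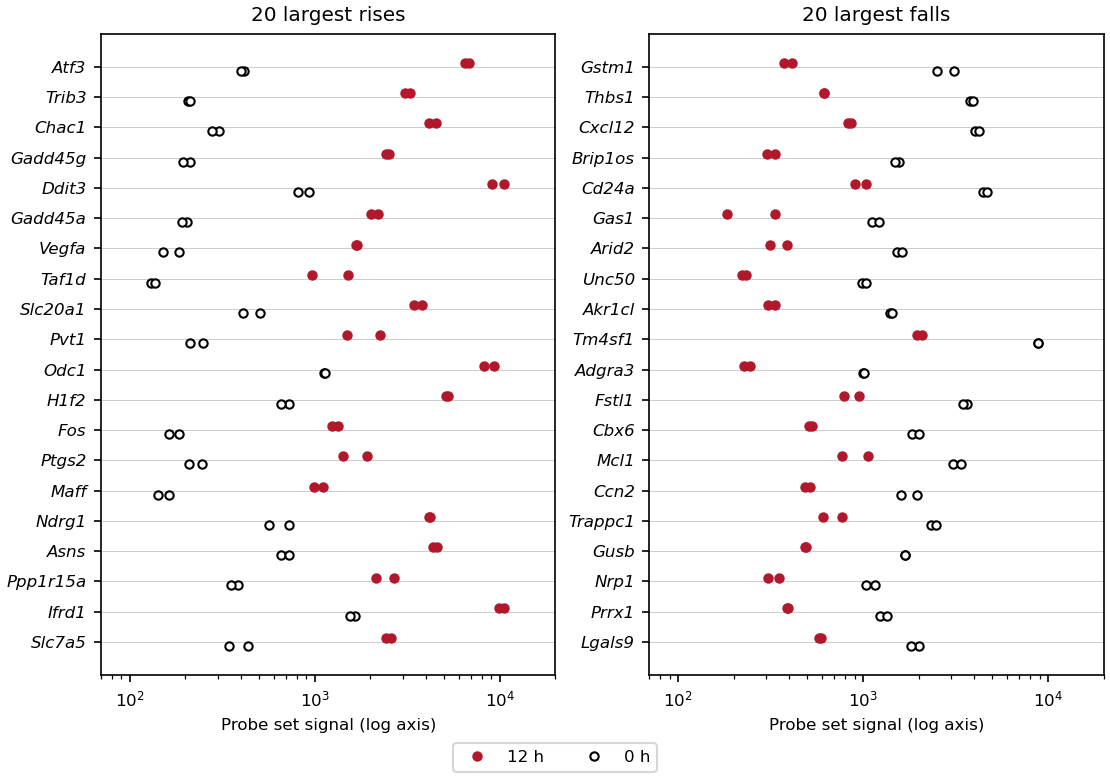
Signals on a log axis of the 20 largest rises and the 20 largest falls at 12 h among genes of above-median signal, each array a point, with 12 h and 0 h arrays in separate colours. Atf3 sits at 6477.3 and 6864.1 at 12 h and 416.6 and 400.7 at 0 h, and Gstm1, the largest fall, at 375.7 and 411.1 at 12 h and 2501.1 and 3109.1 at 0 h.

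Many genes of amino acid supply rose. Asns, asparagine synthetase, had 4566.2 and 4333.9 at 12 h against 656.6 and 722.7 at 0 h and was 0.93 higher than at 6 h (adjusted p = 0.000597). In the list of serine, glycine and one-carbon synthesis 9 of 13 were higher and none lower (median 0.89), and 5 were also higher than at 6 h. Aldh18a1, the first enzyme of proline synthesis, had 872.9 and 1125.3 at 12 h against 375.6 and 489.1 at 0 h. Of the 18 tRNA synthetases 13 were higher and none lower (median 0.74), and 5 were higher than at 6 h. Nars, for asparagine, was the largest of these, at 5667.9 and 5221.0 at 12 h against 2588.8 and 2266.1 at 0 h (1.16 ± 0.11). Tars, for threonine, had 3256.4 and 3044.6 at 12 h, 1640.1 and 1431.5 at 0 h, and nearly all of its change came after 6 h (0.96 against 6 h, adjusted p = 0.00207). Iars, for isoleucine, rose by 0.68 ± 0.13. Yars, for tyrosine, rose by 0.48 ± 0.17 (adjusted p = 0.0424), a call lost without the second 12 h array (0.36) or the second 0 h array (0.26). Xpot, the exportin that carries tRNAs out of the nucleus, moved the other way, with 473.9 and 603.7 at 12 h and 1186.9 and 1222.6 at 0 h (-1.16 ± 0.14).

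Amino acid carriers divided. Slc7a11, the cystine-glutamate exchanger, was among the genes that came up from a low signal, at 369.1 and 330.5 at 12 h and 18.7 and 55.8 at 0 h. Slc7a5, a leucine carrier, had 2428.8 and 2594.3 at 12 h against 345.8 and 437.4 at 0 h, and was 1.05 above 6 h (adjusted p = 0.00207). By contrast Slc38a2, which carries neutral amino acids, fell to 1795.6 and 1823.2 at 12 h, against 3764.5 and 4158.4 at 0 h. Slc6a6, the taurine carrier, fell to 254.0 and 213.6 at 12 h, against 654.6 and 863.9 at 0 h. Of 13 carriers tested 6 were higher and 3 lower.

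**Figure D3:**
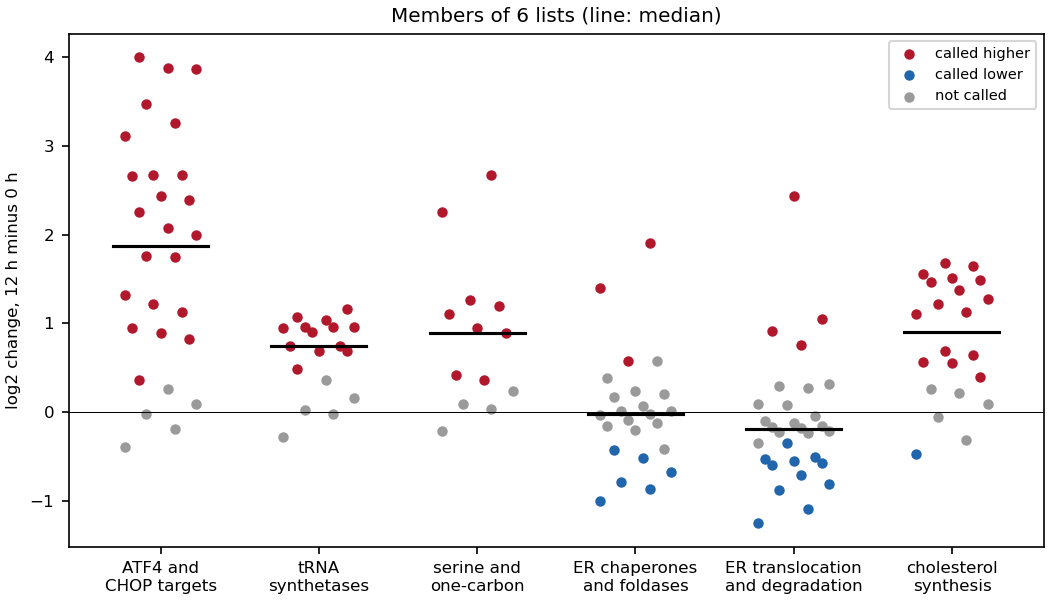
Changes at 12 h against 0 h (log2 scale) of the members of 6 stress lists, each gene a point, with the list median marked. The medians were 1.88 for ATF4 and CHOP targets and 0.74 for tRNA synthetases, against -0.03 for ER chaperones.

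The ER chaperones did not move as a group: of 24 tested, 3 were higher, 6 lower and 15 not called, with a median of -0.03. Some of their promoters carry the ER stress element, CCAAT and CCACG 9 letters apart, which ATF6 is known to read. It occurred in 13 of 9179 promoters of the genes tested (0.14%) and in 8 of 26 promoters of the chaperones (30.77%). The element is printed for the 8 genes that held it, with 5 bases either side and the element in capitals, so that their sequences can be set beside their different changes.
Hspa5 (chr2:34772020-34772048, plus strand): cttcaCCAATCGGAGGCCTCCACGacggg
Calr (chr8:84847070-84847098, plus strand): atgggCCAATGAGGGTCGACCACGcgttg
Dnajc3 (chr14:118937822-118937850, plus strand): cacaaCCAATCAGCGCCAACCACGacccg
Canx (chr11:50325795-50325823, minus strand): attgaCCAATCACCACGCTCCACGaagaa
Creld2 (chr15:88819515-88819543, minus strand): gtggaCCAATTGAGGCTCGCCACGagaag
Ero1b (chr13:12565677-12565705, minus strand): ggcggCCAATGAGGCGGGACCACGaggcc
Hsp90b1 (chr10:86705633-86705661, minus strand): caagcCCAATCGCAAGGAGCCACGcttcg
Hsp90b1 (chr10:86705528-86705556, plus strand): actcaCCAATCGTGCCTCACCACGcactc
Pdia6 (chr12:17266486-17266514, plus strand): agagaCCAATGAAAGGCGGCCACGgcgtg
Hspa5, 150 bases before the start (chr2:34771940-34772089, plus strand): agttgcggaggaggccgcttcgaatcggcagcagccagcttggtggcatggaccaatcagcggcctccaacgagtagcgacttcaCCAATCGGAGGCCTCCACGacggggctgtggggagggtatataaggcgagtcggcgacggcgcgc
Of these 8 genes 1 was higher (Hspa5), 2 were lower (Calr and Dnajc3) and 5 were not called. Hspa5, the main ER chaperone BiP, had 21669.7 and 17271.6 at 12 h against 7256.4 and 7388.7 at 0 h. Most of its change of 1.40 ± 0.13 came after 6 h, the 12 h signals being 0.99 above those of 6 h (adjusted p = 0.00185). Calr, the lectin chaperone calreticulin, fell to 2800.9 and 2891.3 at 12 h, against 4651.9 and 4440.5 at 0 h. Dnajc3, an HSP40 cochaperone, fell by 0.87 ± 0.21, a call lost without the first 12 h array (-0.56) or the second 0 h array (-0.69). Hsp90b1, which holds the element in 2 places, had 3344.6 and 3402.4 at 12 h and 3338.0 and 3336.7 at 0 h, and its change of 0.02 was not called. Outside the element, Ero1a, the ER oxidase, had 976.9 and 1011.1 at 12 h against 225.8 and 300.3 at 0 h. Of 30 genes of ER translocation, glycosylation and degradation 4 were higher and 11 lower, with a median of -0.20. Against that median, Herpud1, of ER-associated degradation, had 3821.3 and 2858.0 at 12 h against 571.7 and 634.5 at 0 h. It was 0.92 above 6 h (adjusted p = 0.00409). Sec61b and Dad1 were among those lower (-1.26 and -1.09). Xbp1 was called higher (0.91 ± 0.13).

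The inducible HSP70 genes came late. Hspa1a, an inducible HSP70, had 952.2 and 1272.9 at 12 h and 496.1 and 523.4 at 0 h, and its change against 6 h (1.02, adjusted p = 0.00295) was close to that against 0 h (1.10 ± 0.16). Probe sets of Hspa1a and Hspa1b may share transcripts, so that their signals may not be separable. Hsph1, a cochaperone of HSP70, rose by 1.47 ± 0.13. Of 22 heat shock genes tested 8 were higher and 1 lower, Cryab, which encodes a small heat shock protein and fell to 604.9 and 669.0 at 12 h, against 1692.8 and 1611.8 at 0 h.

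Glutathione and NRF2 genes were mixed, 8 of 23 being higher and 5 lower. Of 13 metallothioneins and zinc carriers 3 were higher (23.1%) and 3 lower (23.1%), shares near those of all genes (20.9% and 17.5%). The metallothioneins Mt1 and Mt2 were both called higher, whereas the zinc carriers Slc30a5 and Slc39a1 were called lower. The calls of both carriers were lost under some alternatives. Hmox1, haem oxygenase, had 2176.5 and 2302.6 at 12 h against 404.0 and 358.3 at 0 h (2.53 ± 0.18). It was among the strongest late genes, with 566.7 and 791.2 at 6 h and a change after 6 h of 1.73 (adjusted p = 0.000254). Mt2, a metallothionein that binds zinc and copper, had 15981.0 and 15713.2 at 12 h against 2741.0 and 2864.6 at 0 h, but did not pass the test against 6 h (0.02, adjusted p = 0.941). Glutathione S-transferases, which couple glutathione to foreign compounds, were one-sided: none of 16 was higher and 8 were lower, with a median of -0.62. Gstm1 had 375.7 and 411.1 at 12 h against 2501.1 and 3109.1 at 0 h (-2.80 ± 0.13). Its paralogues may be read by the same probes, so the member behind the signal is uncertain. Mgst1, a membrane transferase, fell to 3751.8 and 3540.6 at 12 h, against 10016.3 and 10458.3 at 0 h, and Gstp1 to 4044.4 and 3497.5 at 12 h, against 7383.3 and 7681.2 at 0 h. Nqo1, a standard NRF2 target, was not called (-0.20, adjusted p = 0.384).

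**Figure D4:**
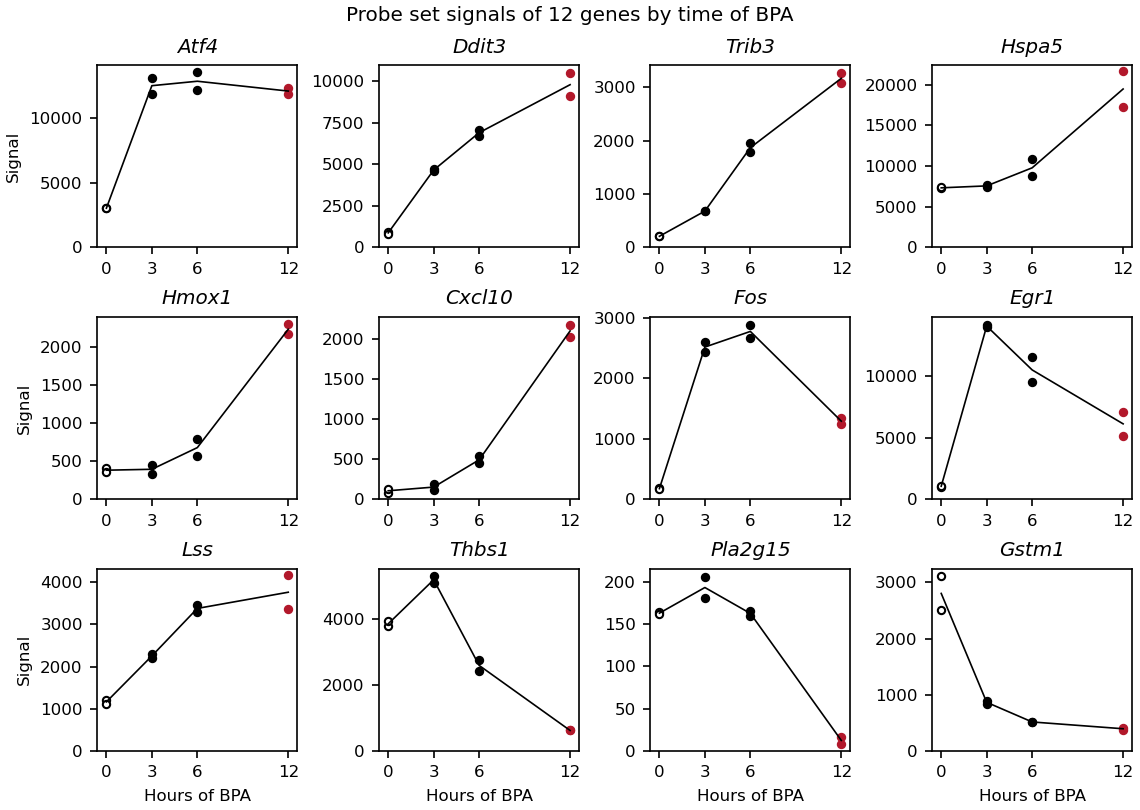
Signals of 12 genes by hours of BPA (0, 3, 6 and 12 h), each array a point and the line the mean of the 2. Cxcl10 stood at 190.7 and 109.5 at 3 h and 448.2 and 532.2 at 6 h before 2028.7 and 2168.1 at 12 h, whereas Fos had 2880.7 and 2673.6 at 6 h and 1241.2 and 1340.7 at 12 h.

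Inflammatory and cytokine genes held the largest rise of the comparison. Cxcl10, a chemokine that draws T cells, had 2028.7 and 2168.1 at 12 h against 81.8 and 126.3 at 0 h, a change of 4.26 ± 0.24. It was still climbing late, the 12 h signals being 2.08 above those of 6 h (adjusted p = 0.000554). Socs2, a brake on cytokine and growth hormone signalling, had 488.3 and 569.0 at 12 h against 26.3 and 37.9 at 0 h (3.76 ± 0.25). Ccl7, a monocyte chemokine, had 448.6 and 506.7 at 12 h against 95.4 and 38.1 at 0 h. Cxcl12, the chemokine that retains stem cells, fell instead to 856.4 and 828.0 at 12 h, against 4039.6 and 4212.7 at 0 h. The 13 chemokines tested thus had 4 higher and 1 lower. Their median was -0.24, but its sign changed under 3 alternatives. NF-kB is a factor that many such genes answer to. Its subunit gene Rel stood at 604.5 and 588.8 at 12 h against 77.8 and 68.9 at 0 h. Relb reached 390.8 and 431.1 at 12 h against 134.0 and 101.6 at 0 h. Nfkbia and Tnfaip3, which hold NF-kB back, rose by 0.93 ± 0.12 and 1.23 ± 0.20 (named after their values were seen). Of 23 NF-kB genes 14 were higher and none lower. Endothelial and blood cell markers had 1 of 6 tested called higher (Flt1, 1.98, a call lost without the second 12 h array, 1.23, and with its probe sets averaged, 0.70), with summed signals of 1178.3 and 1178.2 at 12 h and 941.9 and 887.8 at 0 h, while Pecam1 and Ptprc were below the filter. Their part in these results was not tested.

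Immediate early genes, the first to answer growth factors and stress, were above 0 h but often below 6 h. Of 33 tested 19 were higher at 12 h than at 0 h and 2 lower (Ccn2 and Ier3), whereas against 6 h none was higher and 13 were lower. Fos, a subunit of AP-1, had 1241.2 and 1340.7 at 12 h against 184.3 and 163.4 at 0 h, and was 1.10 ± 0.12 below 6 h (adjusted p = 0.000303). Klf10 had 1543.0 and 1918.7 at 12 h against 277.8 and 275.7 at 0 h and was 0.90 below 6 h (adjusted p = 0.0023).

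Of 15 growth arrest and DNA damage genes 8 were higher and 4 lower, among them Sesn1 and Cdkn2c, and many cyclin and CDK genes fell. Gadd45a and Gadd45g, which bind stress kinases, rose by 3.36 ± 0.12 and 3.56 ± 0.12. Gadd45g had 2433.8 and 2527.9 at 12 h against 212.9 and 194.9 at 0 h. Of 30 cyclins, CDKs and inhibitors none was higher and 15 were lower, with a median of -0.31. Ccnd2, a G1 cyclin, fell to 2648.8 and 2684.6 at 12 h, against 7281.9 and 7693.1 at 0 h. Ccnd1 was at 366.9 and 423.6 at 12 h against 836.5 and 805.8 at 0 h. Skp2, the ligase that marks the CDK inhibitor p27 for destruction, fell by 1.61 ± 0.16 and Cdk2, the kinase of S-phase entry, by 1.43 ± 0.17 (Cdk2 was named after its values were seen). Mki67 and Top2a, marks of dividing cells, were not called, at 1092.9 and 1457.6 at 12 h and 1246.9 and 1122.2 at 0 h for Mki67. Cdkn1a, the p53 target p21, was not called either (0.26 ± 0.12, adjusted p = 0.11). Averaged over all of its probe sets Cdkn1a was 0.87 ± 0.11 and passed the test. Among 23 p53 targets 10 were higher, among them Mdm2 (1.56 ± 0.11), which degrades p53, and 5 were lower. Of the BCL2 family and caspases 6 of 30 were higher and 7 lower, and Mcl1, a short-lived survival protein, fell to 1068.3 and 772.2 at 12 h, against 3047.1 and 3370.7 at 0 h.

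**Figure D5:**
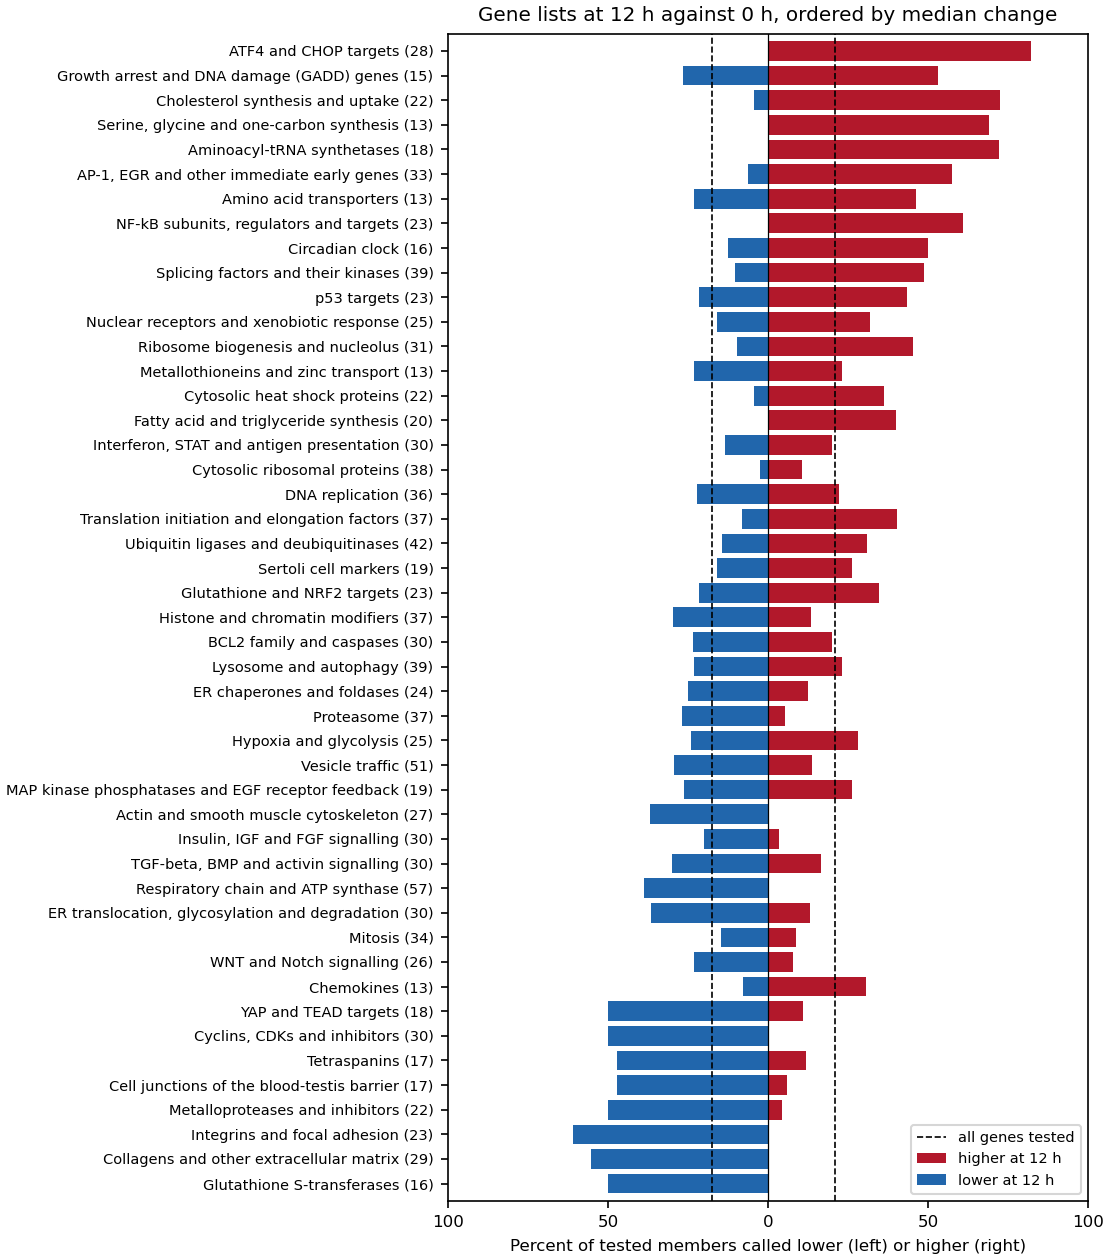
Share of the tested members of each list called higher and called lower at 12 h (percent), for the 47 lists with 13 or more tested members. Lists are ordered by median change, and dashed lines mark the shares over all 8675 genes, 20.9% higher and 17.5% lower. The ATF4 list (82.1% higher) and the integrin list (60.9% lower) have the largest shares in each direction.

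Many genes of cell adhesion and matrix fell. Of 23 integrin and focal adhesion genes none was higher and 14 were lower (median -0.47), and of 29 collagens and other matrix genes none was higher and 16 were lower (median -0.51). In each of the 2 lists 6 genes were also lower at 12 h than at 6 h. Thbs1, thrombospondin, a matrix glycoprotein and target of YAP, had 616.1 and 617.4 at 12 h against 3769.3 and 3924.8 at 0 h, but its signals at 3 h (5282.3 and 5077.6) stood above the start, and most of its change of -2.63 ± 0.11 came after 6 h (-2.05, adjusted p = 5.66e-07). Col3a1, a fibrillar collagen, fell to 1894.4 and 1834.7 at 12 h, against 4284.9 and 5513.7 at 0 h. Tns1, tensin, which ties integrins to actin, fell to 231.1 and 184.6 at 12 h, against 631.1 and 638.5 at 0 h. Itgav, an integrin alpha chain, had 1425.4 and 1673.3 at 12 h against 2842.4 and 3133.5 at 0 h. Averaged over their probe sets the changes were smaller, -0.96 for Tns1 and -0.34 for Itgav. Metalloproteases showed 1 higher and 11 lower of 22. Mmp11 fell to 128.1 and 131.1 at 12 h, against 827.3 and 753.0 at 0 h. Mmp13, a collagenase, was the one that rose, with 466.9 and 596.5 at 12 h and 120.1 and 84.6 at 0 h.

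Peritubular and fibroblast markers stood beside these falls with 0 of 8 tested higher and 2 lower (Col1a1 and Dcn). Their summed signals were 5009.5 and 5800.1 at 12 h and 10083.8 and 10251.6 at 0 h, most of it from Dcn (3908.5 and 4670.6 at 12 h, 8440.4 and 8423.1 at 0 h). Of the muscle markers, Myh11 (39.9 and 41.8 at 12 h, 20.5 and 28.9 at 0 h), Cnn1 and Tagln were below the filter. Acta2 (37.8 and 98.3 at 12 h, 24.0 and 109.9 at 0 h) and Des (86.9 and 74.9 at 12 h, 82.4 and 80.2 at 0 h) passed it and were not called. In bulk RNA fewer cells of a type and less RNA per cell cannot be told apart. TTE3 is a single line, and whether any such cells were present or had a part in the matrix result was not tested.

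The YAP and TEAD list, genes that answer cell spreading and density, had 2 higher and 9 lower of 18, and the same number, 9, were lower at 12 h than at 6 h. Ccn2, a secreted growth factor, had 519.1 and 483.6 at 12 h against 1958.7 and 1596.3 at 0 h. Its signals stood well above the start at 3 h (5755.5 and 5343.4) and were back near it at 6 h (1976.9 and 1673.4). The 12 h signals were below those of 6 h (-1.84, adjusted p = 1.14e-05, limma). Tead1, a DNA-binding partner of YAP, had 270.7 and 269.6 at 12 h against 34.3 and 31.3 at 0 h. The TEAD letters GGAATG stood in 6 of 8 promoters of the genes called lower in this list (75.0%), beside 12.13% of all tested. These promoters came from 7 of the 9 lower genes, and none of Ccn2 or Thbs1 was among them. As this list gathers known targets, its share may likewise follow from how it was chosen. Of the 17 junction genes of the blood-testis barrier 1 was higher and 8 lower. F11r, the junctional adhesion molecule JAM-A, fell to 1956.2 and 1660.4 at 12 h, against 4365.5 and 3835.5 at 0 h, and Gja1, connexin 43, was not called (0.15, adjusted p = 0.363). The list of tetraspanins, membrane organisers, and related genes had 2 of 17 higher and 8 lower. Its member Tm4sf1 had 2089.5 and 1967.7 at 12 h against 8812.8 and 8779.5 at 0 h. Cd9 fell to 402.2 and 435.9 at 12 h, against 1374.0 and 1327.5 at 0 h.

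Of 19 Sertoli markers 5 were higher (26.3%) and 3 lower (15.8%), shares near those of all genes. Of these 8 calls those of Sox9, Gata4, Tjp1, Krt18 and Inhbb were lost under at least 1 alternative. Etv5, a transcription factor that Sertoli cells need to keep the stem cell niche, had 434.6 and 398.6 at 12 h against 88.0 and 95.0 at 0 h and was 1.11 above 6 h (adjusted p = 0.00804), a call lost without the first 12 h array (1.05). Clu, a secreted chaperone, fell to 3089.3 and 3729.1 at 12 h, against 7747.4 and 7553.6 at 0 h. Sox9 rose by 1.55 ± 0.36, a call lost when its probe sets were averaged (0.45). Kitl, the KIT ligand, was not called (-0.11, adjusted p = 0.578), but only 1 of its 4 probe sets moved down. Averaged over all of its probe sets Kitl was 0.39 ± 0.13 and passed the test as higher. Wt1 was not called (-0.67, adjusted p = 0.0595). Of 19 germ cell markers on the array 3 passed the filter, with summed signals of 683.1 and 671.0 at 12 h and 932.2 and 992.5 at 0 h, and Kit was the 1 called (lower). None of the 4 Leydig markers tested was called, and their list summed to 3027.8 and 2948.0 at 12 h and 3266.2 and 3184.5 at 0 h, with Fdx1, Scarb1 and Star, which other cells also express, above the filter.

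Genes of cholesterol synthesis were higher than at 0 h, with little difference from 6 h. Of 22 cholesterol genes 16 were higher and 1 lower (median 0.90), and against 6 h none was higher and 1 was lower. Lss, lanosterol synthase, had 4167.9 and 3356.9 at 12 h against 1206.5 and 1116.2 at 0 h, and at 6 h it already stood at 3464.4 and 3291.6. Fasn, fatty acid synthase, had 9100.4 and 7790.8 at 12 h against 3555.3 and 3584.0 at 0 h, and 8 of 20 fatty acid genes were higher with none lower. The CCAAT letters stood in 12 of 15 promoters (80.0%) of the cholesterol genes called higher, beside 37.62% of all tested. The sterol regulatory element TCACNCCAC, searched on both strands, stood in 1 of the 15 (6.67%), beside 1.17% of all tested. Polyamine synthesis had Odc1, its rate-limiting enzyme, at 8179.7 and 9309.8 at 12 h against 1122.1 and 1141.9 at 0 h, with 0.89 of the change after 6 h (adjusted p = 0.000727). Azin1, which binds the inhibitor of ODC, rose by 1.09 ± 0.12. Of 57 respiratory chain genes none was higher, 22 were lower and 35 were not called, with a median of -0.19. Mitochondrial ribosomal proteins leaned the other way, 23 of 74 being higher and 12 lower (median 0.17). Sdhc, a subunit of complex II, fell to 530.2 and 694.8 at 12 h, against 1796.5 and 1705.5 at 0 h, and Sdhd fell by 1.32 ± 0.12.

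Of 30 insulin, IGF and FGF genes 1 was higher and 6 were lower, of 26 WNT and Notch genes 2 and 6, and of 19 MAP kinase and EGF receptor feedback genes 5 and 5. Among the called genes, Vegfa, the vascular growth factor, had 1683.6 and 1665.1 at 12 h against 151.7 and 185.1 at 0 h (3.26 ± 0.16). Errfi1, which blocks the EGF receptor, rose by 2.10 ± 0.10 and Egfr by 1.09 ± 0.11. Irs1, the insulin receptor's docking protein, fell to 244.1 and 265.5 at 12 h, against 800.8 and 677.7 at 0 h. Fzd2, a WNT receptor, fell to 274.8 and 218.3 at 12 h, against 1014.6 and 1055.8 at 0 h.

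The 2 genes that fell by 8-fold or more ended near background. Chst15, a sulphotransferase of chondroitin chains, had 19.2 and 13.6 at 12 h against 299.8 and 256.3 at 0 h (-3.56 ± 0.30), after 78.4 and 119.3 at 6 h. Pla2g15, a lysosomal phospholipase, had 16.1 and 8.5 at 12 h against 164.0 and 161.6 at 0 h, and stood at 159.9 and 165.1 at 6 h, so that its change was wholly after 6 h (-3.10, adjusted p = 0.000156). Averaged over its 2 probe sets the change of Pla2g15 against 0 h was -1.83. Since the offset of 7.9 is close to such signals, these log2 changes understate the falls of the dimmest genes.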

How the data were processed

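Total RNA of TTE3 cells was hybridised to Affymetrix Mouse 430A arrays, 2 at each of 4 times, labelled with phycoerythrin per the labels. The authors deposited 1 linear signal intensity for each probe set and array; the summary algorithm is not given in the sources used here. The values show that each array was scaled to 1 trimmed mean (2% off each end, 500.16 to 500.18), so no further scaling was applied. Of 22690 probe sets 64 were controls, 20380 had 1 symbol, 691 several and 1555 none. Symbols were updated through RefSeq for 20351 and kept for 29. The brightest probe set stood for each gene. Genes under the 30th percentile of mean log2 signal were left out, log2(signal + 7.9) was fitted with limma 3.58.1 (R 4.3.3) with 1 mean per time over 8 arrays and an intensity trend, and contrasts were tested two-sided with Benjamini-Hochberg adjustment over 8675 genes. Simulated data had 200 of 8675 genes changed in each of 10 runs, with independent noise on every array. On them the fit found 63.9% of 2-fold and 91.4% of 4-fold changes, with 4.67% of calls false. At 12 h against 0 h 3331 genes were called, a far larger share, so these rates need not hold there. The number of arrays limits the precision.

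Genes were named by rule: the 20 largest rises and falls of above-median signal with non-overlapping arrays, passing over predicted genes; up to 4 called members of each list and up to 2 against its median; a fixed set; and the 5 largest changes from or to low signals. Promoter matches and some further list members were named after their values were seen. The genes, lists and families were chosen with earlier results of these data known, so no list was tested. Of 143 named called genes with several probe sets, 116 had all of them moving the same way. The Sertoli entry Abpa was left out because the symbol resolves to another gene. Gper1 and Trp53 had no probe set naming them alone and were not analysed here. Promoters came from RefSeq's GRCm38.p6 table (300 bases), which held 7098 of the 8675 genes tested. Alternatives changed the scaling, offset, filter, trend, arrays fitted, replicate block and probe set rule, and left out each array.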

Additional observations from a re-analysis of the deposited data

How the results depend on the processing

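The counts at 12 h against 0 h stayed within 1.5 times under every alternative run: 2353 to 3633 genes in all. Leaving out 1 array gave 2353 to 2752 genes, 1313 to 1447 higher and 1040 to 1305 lower, with 475 to 509 at least 2-fold higher and 424 to 507 at least 2-fold lower, and called list members numbered 430 to 496 against 572 with all arrays. Quantile normalization gave 1584 higher and 1646 lower (49.0% higher against 54.3%). Against 6 h the counts moved more. The 414 genes became 274 without a filter, 114 without the intensity trend and 173 with the 4 arrays alone. Of the 80 higher genes these left 46, 22 and 33, while scaling to the same median gave 203. The 334 lower genes became 92 without the trend, 140 with the 4 arrays alone and 199 with median scaling. Leaving out 1 array gave 154 to 428 genes, 20 to 129 higher and 134 to 299 lower. The cause of these moves was not tested. Of 242 named called genes 200 kept call and direction under all alternatives. Of 17 called genes named after their values were seen 15 did (not Krt18 and Yars), and of 17 called changes against 6 h 14 did (not Ddit3, Etv5 and Herpud1). With the mean over all probe sets Cars (-0.17), Eif5b (-0.40), Kitl (0.39), Psmd11 (-0.02) and Rps18 (-0.02) changed sign.

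Whether replicate numbers pair the arrays is not stated, and the main fit took them as unpaired. Same-numbered arrays of different times had deviations correlated at -0.011 to 0.122, highest between 6 h and 12 h. With the replicate number as a block 3633 genes were called against 0 h and 703 against 6 h (169 higher and 534 lower).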

Other observations

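Several groups outside the stress and adhesion genes also moved at 12 h. Of 15 Homeobox HOX genes tested, which set body position, none was higher and 6 were lower than at 0 h, with a median of -0.55. Hoxd10 fell to 133.6 and 157.3 at 12 h, against 410.9 and 443.7 at 0 h, and had already reached 145.3 and 199.6 at 3 h. Hoxd9 fell by 1.39 ± 0.17. Clock genes were more often higher (8 of 16, 2 lower): Nfil3, a repressor of clock output, had 1370.8 and 1369.4 at 12 h against 249.9 and 273.6 at 0 h, and Nr1d1, the receptor REV-ERB alpha, had 416.8 and 423.1 at 12 h against 123.8 and 156.7 at 0 h. Csnk1d, the kinase that marks PER proteins for loss, fell to 1542.9 and 1453.0 at 12 h, against 3165.8 and 3027.2 at 0 h, but only 3 of its 5 probe sets moved that way (-1.04, and -0.58 averaged over them).

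Of 39 splicing factors and their kinases 19 were higher and 4 lower. Clk4, a kinase of splicing factors, had 1288.2 and 1341.4 at 12 h against 298.3 and 235.4 at 0 h, and Tra2b, a splicing regulator, had 6785.2 and 6627.1 at 12 h against 2782.3 and 2470.3 at 0 h. All 5 snoRNA host genes tested were higher. These hosts carry the small nucleolar RNAs in their introns, and Snhg5 had 1416.9 and 1557.7 at 12 h against 452.5 and 424.9 at 0 h. Snhg1 rose by 2.16 ± 0.12, but only 3 of its 5 probe sets moved that way. Of 37 DEAD and DEAH box helicases 19 were higher and 4 lower. Apart from these RNA genes, of 134 genes named Zfp 46 were higher and 13 lower (median 0.31). With quantile normalization all of these list medians kept their sign. The 5 snoRNA hosts, Hoxd9 and Hoxd10 were named after their values were seen.

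The limits are those of 2 arrays a time, of a line in which several Sertoli markers fell below the filter, and of time in culture and BPA that cannot be told apart. Low signals bound the falls that can be measured.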
